A study of Ovis aries with 2 samples.

Results

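The cells described here are sheep testis barcodes in the middle of a window of HMGB4 transcript level, labelled late round spermatids. They were chosen by measured values: 5000 or more UMIs, 2 or more SPACA1 UMIs, at most 4 AURKA and 2 PIWIL1 UMIs, no VWF or CDH5 UMI, at most 4 ACTA2 and DCN UMIs together, and HMGB4 from 2000 to under 8000 CPM of the barcode. A UMI is a molecular tag that marks 1 captured transcript, and CPM is a UMI count scaled to a total of 1000000 UMIs, of a cell or of the sum over a group of cells. The rule kept 1144 of 15839 barcodes, of which 823 came from control and 321 from ZEA. The same gates with HMGB4 under 2000 CPM gave 35 control and 45 ZEA cells (the low window), and with HMGB4 of 8000 or more gave 706 and 26 cells (the high window).

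Round spermatids are the haploid cells that follow meiosis. Over this stage the Golgi-derived acrosome spreads across the nucleus, the flagellum grows, and transcripts are made and stored for translation after transition proteins and protamines have compacted the chromatin and transcription has stopped. HMGB4 is a high-mobility-group box protein of spermatids, and SPACA1 is a membrane protein of the inner acrosome. AURKA, a kinase of the division spindle, and PIWIL1, a protein of the piRNA pathway, mark the meiotic cells that come before. VWF and CDH5 mark endothelium, ACTA2 contractile cells and DCN stromal cells.

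Both groups were testis from sheep 8 months old, with no further genotype or breed in the labels. The untreated group was labelled Control and the treated group ZEA0.75. The labels give neither a unit nor a spelled-out name for the agent (ZEA commonly stands for zearalenone, an oestrogen-like toxin made by Fusarium moulds), and no number of animals. The series' design text names damage to the testis by ZEA as the question. Each group had 1 library made with the same 10x Genomics 3' kit, so nothing here has a replicate check, no test was made, and every interval covers counting error only. The control library held 53044981 UMIs (median 4246 per barcode) and the ZEA library 22148456 (median 1405). The matrices were written by Cell Ranger 5.0.0 in control and 3.1.0 in ZEA, so group, library, depth and software version cannot be told apart. The libraries shared 15 barcode sequences, and none was that of a cell in the window.

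The window held 11.7% of all control barcodes (95% exact binomial interval 11.0 to 12.5%) and 3.64% of ZEA barcodes (3.26 to 4.06%). Among barcodes with 5000 or more UMIs the order was the other way, 24.2% of 3404 in control and 28.2% of 1137 in ZEA. Members had a median of 13399 UMIs in control and 9884 in ZEA, and supplied 12033701 and 3403234 UMIs, which is 22.7% and 15.4% of all UMIs of their libraries. No member had over 5% mitochondrial UMIs.

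The libraries filled the window from opposite ends. The median HMGB4 level of members was 6210 CPM in control (quartiles 5060 and 7144) and 3533 in ZEA (quartiles 2833 and 4939). Of the 321 ZEA members, 154 (48.0%) lay between 2000 and 3500 CPM, where control had 23 of 823 (2.80%). From 6500 to 8000 CPM the order turned, with 346 control members (42.0%) and 25 ZEA members (7.79%). In the bins between, control had 172 and 282 members and ZEA had 92 and 50. HMGB4 is the gene of the rule, so this is a description of the cells chosen. It bears on every comparison of the libraries below, because many transcripts changed along the HMGB4 axis. Whether an HMGB4 level marks the same stage in both libraries was not tested.

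**Figure D1:**
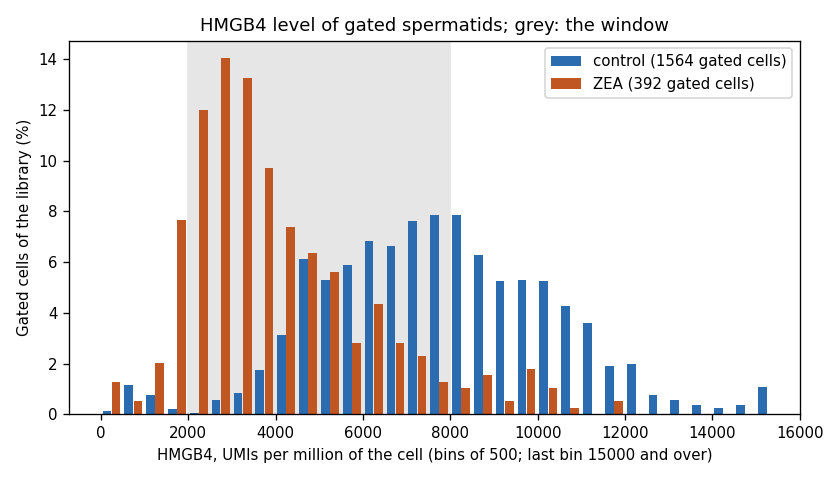
HMGB4 level of each gated spermatid (x axis, CPM of the cell, in bins of 500) against the percent of the library's gated cells (y axis), for 1564 control and 392 ZEA cells; the grey band is the window. Most ZEA cells lie in the left part of the band and control cells run from its right part into the levels above 8000.

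At the edges, few cells lay close to the lower bound in control and many in ZEA. Between 2000 and 2200 CPM there were 0 control and 18 ZEA cells, and between 1800 and 2000 there were 1 and 16. Just under the upper bound, from 7200 to 8000, there were 191 control and 8 ZEA cells, and from 8000 to 8800 there were 175 and 10. The upper bound therefore divides a continuous run of control cells. SPACA1 stood at exactly 2 UMIs in 23 control and 13 ZEA members, and 16 and 6 cells with 1 UMI would otherwise have passed. In control the level of PRSS55 was 319.9 CPM just inside the upper bound and 196 CPM just outside it.

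The 3 markers of the label were present and were highest in the window. PRSS55, a serine protease of the sperm membrane, was at 41.8, 451 and 108 CPM in the low, middle and high windows of control, and at 232, 368 and 105 CPM in ZEA. TSSK4, a testis-specific serine kinase, was at 80.3, 631 and 295 CPM in control and at 394, 522 and 182 CPM in ZEA. SUN5, a nuclear envelope protein that ties the sperm head to the tail, was at 28.9, 632 and 339 CPM in control and at 71.8, 303.5 and 203 CPM in ZEA. All 3 markers had their top value in the middle window of each library, and for PRSS55 and TSSK4 the low window of ZEA already carried more than that of control, beyond the counting intervals. A UMI of PRSS55, TSSK4 and SUN5 was found in 96.0%, 99.5% and 98.8% of control members and in 93.5%, 97.8% and 85.4% of ZEA members. After each member was thinned to 5000 UMIs the shares were 84.2%, 95.9% and 91.6% in control and 79.75%, 90.65% and 68.5% in ZEA. In 1269 ZEA barcodes with 3 or more VWF and CDH5 UMIs, which should lack these transcripts, the shares were 8.04%, 9.30% and 7.80% (median 4243 UMIs). HMGB4, the gene of the rule, was found in 86.8% of them, at 616 CPM, and SPACA1 in 17.9%. Control had 2 such barcodes, of which 1 held a PRSS55 UMI, 2 a TSSK4 UMI and 0 a SUN5 UMI, too few to measure its background. HMGB4 was at 2546 CPM in those 2 barcodes (median 2357 UMIs). In 5 control barcodes with 3 or more UMIs of the leukocyte genes PTPRC and TYROBP it was at 1702 CPM (median 2615 UMIs). Both values lie near the lower HMGB4 bound of 2000 CPM.

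Markers of Sertoli, Leydig and endothelial cells were near 0 in the window. The summed level of 11 Sertoli genes was 6.15 CPM in control and 8.23 CPM in ZEA, that of 7 Leydig genes 0.582 and 0.588 CPM, and that of 10 endothelial genes 2.33 and 4.70 CPM. SOX9 and FSHR, STAR and NR5A1, and KDR and TEK, defining genes of those 3 types, were at 0 in both libraries. The 11 peritubular and perivascular genes summed to 12.6 CPM in control and 50.5 CPM in ZEA, of which tropomyosin TPM2 gave 10.4 and 33.8 CPM, while CNN1 and DES were at 0. The 14 leukocyte genes summed to 1259 CPM in control and 1375 CPM in ZEA, of which AIF1 gave 1255 and 1370 CPM, while CD68, CD3D and LAPTM5 were at 0. The 9 stromal genes summed to 232 and 152 CPM, mostly from COL3A1 at 157 and 101 CPM and SPARC at 54.5 and 41.7 CPM, while LUM was at 0. The part of such cells in the results was not tested. ACTA2 itself was at 0.249 CPM in control members and 17.0 CPM in ZEA members, and 99.5% and 81.3% of members had neither an ACTA2 nor a DCN UMI. Without the members that hold such a UMI, 802 genes were 2-fold or more higher and 618 lower in ZEA, against 838 and 592 with all members.

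Genes with their highest level in the window were sought in both libraries at once. Of 5274 genes that entered, 931 (17.7%) were above both neighbouring windows in both libraries by any amount. A gene entered a comparison of windows with 50 or more UMIs and detection in 5% of the cells of 1 side in each library, and was called when it differed 2-fold or more in the same direction in both. The 8 genes with the largest smallest margin were ASB15, GTF2IRD1, LTF, DPPA2, RNF165, MAP3K2, MRS2 and KCNC2. GTF2IRD1, a transcription factor, was at 3.21, 67.4 and 12.5 CPM in the 3 windows of control and at 34.9, 100.2 and 0 CPM in ZEA. LTF, the iron-binding lactoferrin, was at 3.21, 71.1 and 26.1 CPM in control and at 12.3, 57.3 and 10.9 CPM in ZEA. GTF2IRD1 and LTF each had only 1 UMI in the low window of control. MRS2, a magnesium channel of mitochondria, was at 0, 40.8 and 7.33 CPM in control and at 20.5, 43.8 and 0 CPM in ZEA. The rule chose these 8 for being peaked. ASB15, DPPA2, MRS2 and KCNC2 had no UMI in the 35 low-window cells of control, and GTF2IRD1 and MRS2 none in the 26 high-window cells of ZEA, so those margins rest on the 3 counts set in place of 0.

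Compared with the low window, 608 of 5474 genes (11.1%) were 2-fold or more higher in the middle window in both libraries and 177 (3.23%) lower. The median log2 ratio over all genes was −0.18 in control and 0.06 in ZEA. The low windows are small and not alike: their median HMGB4 level was 908 CPM in control and 1672 in ZEA, and their median AURKA count was 3 and 1 UMIs against 0 in the middle window. The genes that were higher included late spermatid genes, for which 8 of the 13 entered were past 2-fold (median log2 ratio 2.00 in control, 1.18 in ZEA) and none lower. Among them SPEM1, needed for removal of spermatid cytoplasm, was at 196 and 552 CPM in the low and middle windows of control and at 63.6 and 197 CPM in ZEA. TNP1, a transition protein that replaces histones, was at 86.7 and 485.5 CPM in control and at 131 and 403 CPM in ZEA. In the ZEA barcodes with 3 or more VWF and CDH5 UMIs TNP1 was at 144 CPM, so its low-window value in ZEA is not above that background.

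Of 25 acrosome and sperm head genes that entered, 5 were past 2-fold higher (SPACA9, PICK1, IZUMO1, TMEM190 and PRSS37) and none lower. IZUMO1, the sperm protein that binds JUNO on the egg, was at 12.85 and 288 CPM in control and at 39.0 and 156 CPM in ZEA. Of 19 genes of head shaping and head-tail coupling, 3 were higher (HOOK1, ODF1 and CCIN). The list of flagellum, outer dense fibre and fibrous sheath genes had 5 of 25 higher (SPATA18, TEKT5, CATSPER1, OAZ3 and TPPP2). CCIN, calicin of the sperm head cytoskeleton, was at 125 and 1244 CPM in control and at 273 and 571 CPM in ZEA. The early round spermatid list had 2 of 11 higher, among them SPATA25 at 6.42 and 288 CPM in control and at 20.5 and 143 CPM in ZEA. Of 21 ubiquitin system genes 5 were higher and 1, UBE2S, lower. With so few genes per list, none of these counts is read against the 11.1% of all genes as particular to its list.

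Of 27 axonemal genes that entered, none was past 2-fold higher and 1 lower, against 11.1% and 3.23% of all genes. This count is likewise not read as particular to its list. The lower gene was CCDC40, a protein of the axoneme, at 177 and 16.1 CPM in control and at 43.1 and 10.6 CPM in ZEA. The clearest lower group in the summed counts was the mitochondrial genome, with 8 of 8 entered genes past 2-fold lower (median log2 ratio −3.71 in control, −3.08 in ZEA). Per cell, the median mitochondrial share went from 0.341% to 0.0236% in control, but only from 0.0106% to 0.00817% in ZEA. The highest share of a ZEA low-window cell was 2.47%, so the fall of the ZEA sums was not that of its median cell. COX1, a subunit of cytochrome oxidase, was at 912 and 50.4 CPM in control and at 178 and 21.5 CPM in ZEA. Of 16 membrane transport and signalling genes 3 were higher (ATP1A4, LRRC52 and VAT1L) and 2 lower, both of them chaperones. HSP90AA1, cytosolic HSP90, was at 5319 and 752 CPM in control and at 3384 and 1583 CPM in ZEA, and HSPA5, the chaperone of the endoplasmic reticulum, at 948 and 151 CPM in control and at 476 and 231 CPM in ZEA.

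From the middle to the high window more genes were lower than higher. Of 5354 genes, 1031 (19.3%) were 2-fold or more lower in the high window in both libraries and 373 (6.97%) higher. The median log2 ratio over all genes was −0.44 in control and −0.66 in ZEA, so a gene near those values held its place among the others. Scaled by the median of gene ratios, which lowers the reference by 0.37 in control and 0.63 in ZEA on the log2 scale, 468 were lower and 642 higher, and the share of higher calls went from 26.6% to 57.8%. Only 26 ZEA cells stand behind the high window.

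Late spermatid genes led the higher side, with 6 of 13 past 2-fold and none lower. SPEM1 was at 1800 CPM and 1747 CPM in the high windows of control and ZEA, against the 552 and 197 CPM given for the middle. On the lower side were 9 of 26 axonemal genes, 3 of 6 meiotic division genes (CCNA1, CCNB2 and UBE2C) and, of the label markers, PRSS55 and TSSK4. None of these lists had a gene past 2-fold higher. RSPH1, a radial spoke head protein, went from 132 to 46.6 CPM in control and from 139 to 3.63 CPM in ZEA, the last being the level of 1 UMI. CCDC39, a ruler protein of the axoneme, went from 181 to 65.9 CPM and from 376 to 58.1 CPM. Of 25 acrosome genes 5 were lower (ZPBP, LYZL4, DCST1, DCST2 and CCDC62) and 2 higher (SPACA9 and PRSS37), shares close to those of all genes and so no result about the list. LYZL4, a lysozyme-like acrosomal protein, was at 413 and 95.4 CPM in control and at 688.5 and 61.7 CPM in ZEA. SPACA9, an axonemal and acrosomal protein, went the other way, from 552.5 to 1595 CPM and from 122 to 1031 CPM. Of 14 genes of RNA storage, 4 were lower and 1 higher. The helicase DDX25, among the lower, was at 1265 and 489 CPM in control and 1062 and 236 CPM in ZEA. With so few genes per list, these counts are not read against the 19.3% lower and 6.97% higher of all genes. The same holds for the axonemal and meiotic division lists.

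Over the whole span from the low to the high window, the genes with the largest rise in both libraries were MTRES1, UGT8, SCP2D1, GCC1, FBXO39, PHACTR1, C12orf45 and DIPK2A. SCP2D1, a sterol-carrier domain protein, was at 77.1, 1163 and 2868 CPM in control and at 55.4, 497 and 3196 CPM in ZEA. GCC1, a Golgi coiled-coil protein, was at 12.85, 114 and 475 CPM in control and at 8.20, 35.3 and 443 CPM in ZEA. The middle window lay between its neighbours for these genes. MTRES1, UGT8, FBXO39 and C12orf45 had only 1 or 2 UMIs in the low window of each library. The genes with the largest fall were TIMM8B, PSMA3, CRELD1, CDK7, ZMYND10, PDIA3, CENPF and WAPL. Each had only 1 to 3 UMIs in the ZEA high window, so the size of their fall in ZEA rests on very few counts. PDIA3, a disulfide isomerase of the endoplasmic reticulum, was at 630, 74.7 and 31.3 CPM in control and at 260.5, 131 and 10.9 CPM in ZEA. ZMYND10, an assembly factor of axonemal dynein, was at 446.5, 50.9 and 21.6 CPM in control and at 189, 89.0 and 7.26 CPM in ZEA.

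**Figure D2:**
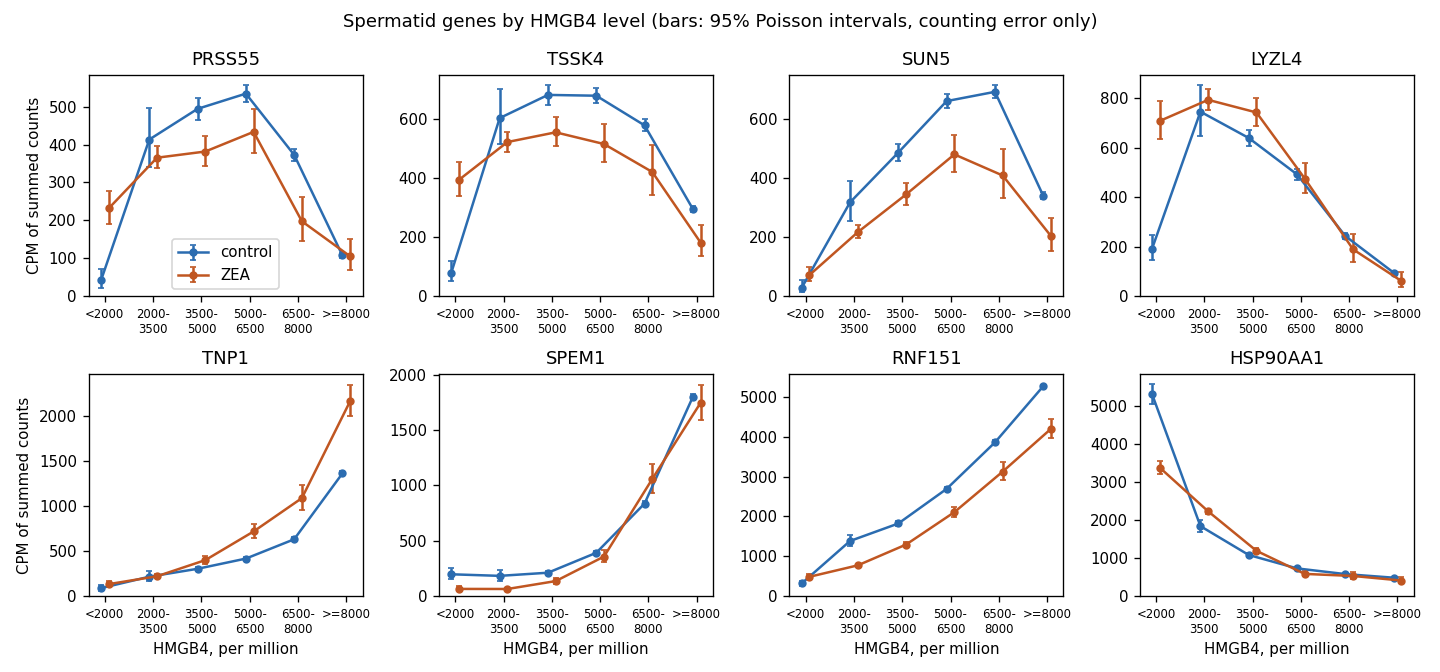
Level of 8 spermatid genes (y axis, CPM of summed counts) in 6 steps of HMGB4 level (x axis, CPM), for control and ZEA; points are sums over cells and bars 95% Poisson intervals. PRSS55, TSSK4 and SUN5 peak inside the window, LYZL4 peaks at its lower end, TNP1, SPEM1 and RNF151 rise along it and HSP90AA1 falls.

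Within the window the cells were not uniform. Members with HMGB4 from 5000 to under 8000 CPM (628 control, 75 ZEA cells) were compared with those from 2000 to under 5000 (195 and 246 cells). Of 5199 genes, 335 (6.44%) were 2-fold or more higher in the upper bins in both libraries and 190 (3.65%) lower. With scaling by the median of gene ratios, which moved the ratios by 0.20 in control and 0.30 in ZEA on the log2 scale, the share of higher calls went from 63.8% to 84.4%. No gene was past 2-fold in opposite directions. Across the 5199 genes the log2 ratios of the libraries had a Spearman rho of 0.85, given as a description, since both were sorted on the same gene. Median depth went in opposite directions along the axis, from 11117 to 14136 UMIs per cell between the lowest and the highest of the 4 bins in control and from 10440 to 8796 in ZEA.

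Late spermatid genes again led, with 5 of 13 past 2-fold higher (SPEM1, CABS1, FAM71B, FAM71F1 and SPATA3). The list median log2 ratio was 0.82 in control and 1.29 in ZEA. The genes that follow are outside this list. PRSS37, a protease-like protein needed for sperm entry into the oviduct, was at 42.8, 69.6, 202 and 536 CPM in the 4 bins of control and at 33.5, 78.1, 305 and 856.5 CPM in ZEA. PHACTR1, an actin and phosphatase regulator, was at 60.6, 101, 298 and 757 CPM in control and at 41.0, 133, 558 and 1281 CPM in ZEA. These values climbed at each step in both libraries. The other genes with the largest rise were CNGB3, KREMEN1, MTRES1, HSPA1L, LPGAT1 and ZC2HC1B. GPI, a glycolytic isomerase, was at 73.7 and 260.4 CPM in the lower and upper bins of control and at 27.9 and 159 CPM in ZEA. FHL5, a coactivator of the spermatid regulator CREM, was at 152.5 and 457 CPM in control and at 101 and 434 CPM in ZEA.

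On the lower side were PAIP2B, PCNX1, EIF2S1, FANCL, LEO1, ACTR6, LCA5 and SYNE2. EIF2S1, the alpha subunit of translation factor eIF2, was at 40.8 and 13.6 CPM in the lower and upper bins of control and at 58.4 and 2.67 CPM in ZEA. Its value in the upper ZEA bins rests on 2 UMIs. PAIP2B, a repressor of poly(A)-binding protein, was at 44.7 and 11.8 CPM in control and at 68.55 and 13.4 CPM in ZEA. LEO1, a subunit of the PAF1 transcription elongation complex, was at 214 and 74.35 CPM in control and at 395.5 and 94.9 CPM in ZEA. HSP90B1, the HSP90 of the endoplasmic reticulum, was at 1771, 1344, 856 and 525 CPM in the 4 bins of control and at 2402, 1767, 793.5 and 420.0 CPM in ZEA. TBPL1, a TATA-binding protein relative required for spermiogenesis, was at 177.5 and 88.2 CPM in control and at 319 and 82.9 CPM in ZEA. No acrosome gene was past 2-fold lower. The 3 label markers were not past 2-fold, each being highest inside the window.

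**Figure D3:**
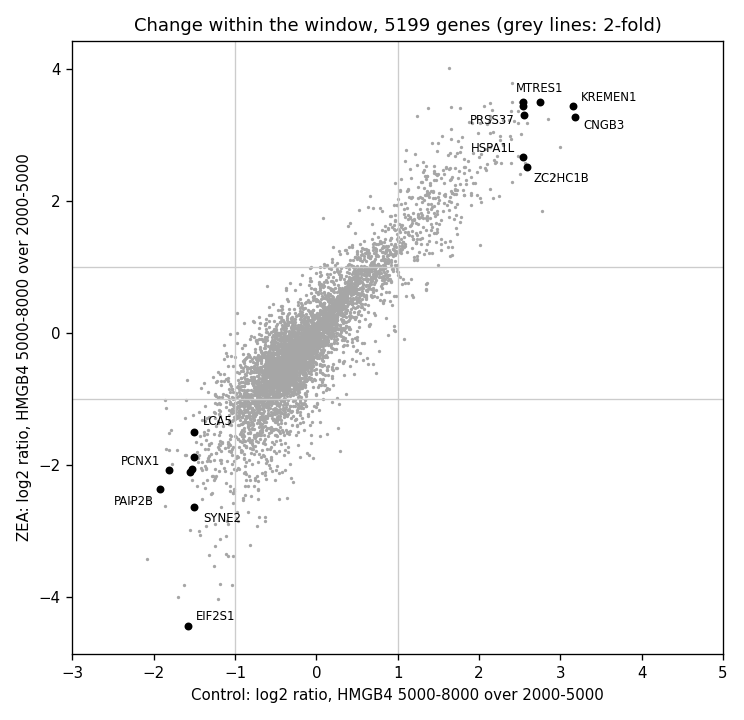
Log2 ratio of cells with HMGB4 from 5000 to under 8000 CPM over cells from 2000 to under 5000, in control (x axis) and ZEA (y axis), for 5199 genes; grey lines mark 2-fold and black points the 16 genes with the largest shared change, most of them named. The cloud runs along the diagonal and the outer quadrants of opposite direction are empty.

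Between the libraries, over all members, 838 of 7834 genes (10.7%) were 2-fold or more higher in ZEA and 592 (7.56%) lower, with a median log2 ratio of 0.16. Thinning each member to 5000 UMIs gave 515 and 387 of 5946 genes. Scaled by the median of gene ratios, 574 were higher and 787 lower, so that the share of higher calls went from 58.6% to 42.2%. When ZEA cells were reweighted to the control share of cells in each of the 4 HMGB4 bins, 507 and 571 genes were past 2-fold, with 47.0% higher, and the median log2 ratio was 0.04. The 2 upper bins hold 34.3% and 42.0% of control members, so most of the weight falls on the 50 and 25 ZEA cells there. Reweighted ratios are given without an interval and are uncertain for genes with few UMIs in those cells. Of the 838 genes first called higher, 290 (34.6%) stayed past 2-fold after reweighting and 776 kept their sign. Of the 592 called lower, 178 (30.1%) stayed and 436 kept their sign.

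Of all genes, 10.7% were past 2-fold higher in ZEA and 7.56% lower. With so few genes per list, the list counts that follow are not read against these shares. The late spermatid list shows what reweighting did. Over all members 4 of 14 genes were past 2-fold lower in ZEA (SPEM1, CABS1, TSSK6 and SPATA3) and none higher, with a list median of −0.57. After reweighting the median was 0.31. SPEM1 was at 552 CPM in control members and 197 CPM in ZEA members, a log2 ratio of −1.49 (interval −1.60 to −1.37), and its reweighted ratio was 0.09. In the 4 bins it was at 182, 210, 390 and 835.5 CPM in control and at 62.9, 134, 356 and 1058 CPM in ZEA. ZEA was lower in the lowest bins, the counting intervals overlapped from 5000 to 6500 CPM, and ZEA was higher in the highest bin. The low window of control was at 196 CPM, about the level of its 2 lowest bins. Background in control could not be measured, and its part in those bins was not tested. TNP1, with 485.5 and 403 CPM over all members, had a ratio of −0.27 that became 0.69.

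The 30 axonemal genes had 6 past 2-fold higher in ZEA (DNAH1, DNAH2, SPAG17, CFAP70, IQCG and CCDC39) and none lower. Of all genes 10.7% were higher and 7.56% lower. The list median was 0.55 over all members and 0.01 after reweighting. HSP90B1 was at 821 CPM in control and 1849 CPM in ZEA, a ratio of 1.17 that became 0.13, and HSP90AA1 at 752 and 1583 CPM, a ratio of 1.07 that became −0.02. In the ubiquitin list 4 of 22 were past 2-fold lower (UBE2J1, UBE2N, RNF151 and UBQLNL) with a median of −0.32, and −0.09 after reweighting. RNF151, a ubiquitin ligase implicated in acrosome formation, was at 1382, 1822, 2692 and 3860 CPM in the 4 bins of control and at 769, 1292, 2107 and 3126 CPM in ZEA, lower in ZEA in each. SPACA9, at 552.5 and 122 CPM over all members, had a ratio of −2.18 that became −0.78. The 26 acrosome genes had a median of 0.14, and 0.05 after reweighting.

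The 7 spermatid chromatin genes that entered, of 27 listed, had a median of 0.71, and 0.55 after reweighting. The medians of all genes were 0.16 and 0.04. Over all members 5 of the 7 were above 0 in ZEA, with CHD5 and EPC1 past 2-fold higher. CHD5, a remodeler needed for the exchange of histones for protamines, was at 109 CPM in control and 236.5 CPM in ZEA, a ratio of 1.11 that became 1.47. EPC1, a subunit of the NuA4 acetyltransferase, was at 187 and 387 CPM, a ratio of 1.05 that became 0.55. PRM3, a protamine-family gene, was at 460 and 574 CPM, a ratio of 0.32 that became 1.03. FSIP2, a protein of the fibrous sheath, was at 677, 435, 323 and 239 CPM in the 4 bins of control and at 1013, 920.4, 659 and 465 CPM in ZEA, higher in each bin.

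The kinase list had 1 of 8 past 2-fold, TSSK6, lower in ZEA at 27.2 and 5.58 CPM, with a list median of −0.59, and −0.13 after reweighting. SUN5, of the label markers, was at 632 CPM in control and 303.5 CPM in ZEA, a ratio of −1.06 that became −0.61. In the bins it was at 317, 485, 659 and 690 CPM in control and at 216, 344, 479 and 408 CPM in ZEA, lower in ZEA in each with no overlap of the intervals. Of 10 mitochondrial genes 4 were past 2-fold lower in ZEA (ND5, COX1, COX2 and COX3) and none higher, with a median of −0.92, and −0.67 after reweighting. The median mitochondrial share of a member's UMIs was 0.0236% in control and 0.00817% in ZEA.

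The lowest genes of ZEA members were MTNR1A, PLB1, PGAP2, VAT1L, CD164L2, CA2, HTD2, PDK2, PARD3B and KREMEN1. MTNR1A, a melatonin receptor, was at 64.1, 95.1, 86.7 and 77.4 CPM in the 4 bins of control and at 3.46, 4.34, 3.96 and 4.12 CPM in ZEA. Over all members it had 83.6 and 3.82 CPM, a ratio of −4.45 (interval −5.37 to −3.67) that was −4.35 after reweighting. The gap was about as wide in every bin. VAT1L, a vesicle amine transport homolog, was at 42.8, 74.9, 123 and 162 CPM in control and at 6.93, 11.9, 27.7 and 61.8 CPM in ZEA, a ratio of −3.08 that became −1.78. PLB1, a phospholipase, was at 34.6 and 2.35 CPM, a ratio of −3.88 that became −2.14, with only 1, 0, 4 and 3 UMIs in the 4 ZEA bins. CA2, a carbonic anhydrase, was at 51.85 and 8.23 CPM, a ratio of −2.66 that became −1.40, and KREMEN1, a receptor of the Wnt inhibitor Dickkopf, at 102 and 20.3 CPM, a ratio of −2.33 that became −0.56.

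The highest genes of ZEA members were SHTN1, AKAP9, KRCC1, AK6, MRPL27, CCDC18, ZAN, CHD9, PRRC2C and DENND3. All were also past 2-fold higher after reweighting. Each had only 3 to 18 UMIs in the highest ZEA bin, so the size of these reweighted ratios is uncertain. AKAP9, a scaffold of the Golgi and centrosome, was at 42.8, 19.4, 15.5 and 7.76 CPM in the 4 bins of control and at 108, 54.2, 37.6 and 41.2 CPM in ZEA. ZAN, zonadhesin, a sperm protein that binds the egg coat, was at 13.55 and 62.6 CPM over all members, a ratio of 2.21 that became 2.08. SHTN1, shootin of axon outgrowth, was at 6.32 and 38.8 CPM, a ratio of 2.62 that became 1.20. In the 4 bins it was at 17.8, 16.7, 4.18 and 2.96 CPM in control. In ZEA it was at 58.9, 26.0, 5.94 and 12.35 CPM, from 102, 24, 3 and 3 UMIs. Between the lowest and the highest bin it was therefore less than 2-fold higher in ZEA.

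**Figure D4:**
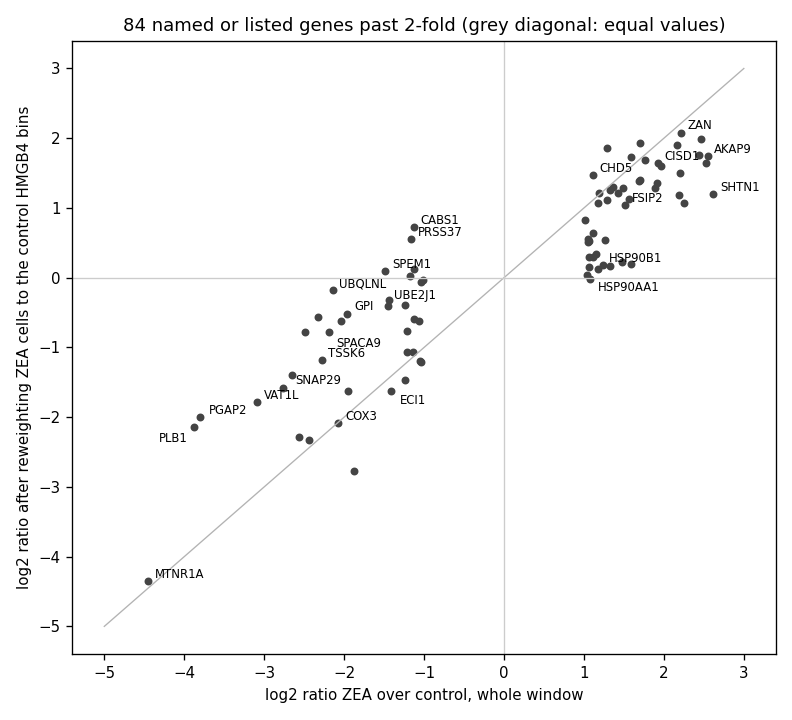
Log2 ratio of ZEA over control for 84 named or listed genes past 2-fold, over all members (x axis) and with ZEA cells reweighted to the control share of cells in each HMGB4 bin (y axis). Genes such as MTNR1A, COX3 and ZAN lie near the diagonal, while SPEM1, PRSS37, HSP90B1 and HSP90AA1 lie near or across 0.

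At matched HMGB4 level most genes called higher over all members kept their direction in each bin. Genes called lower did so less along the bins, down to 257 of 459 in the highest. Of the higher genes that entered in a bin, 416 of 440, 402 of 416, 355 of 405 and 282 of 367 were higher in ZEA from the lowest to the highest bin, and of the lower genes 113 of 119, 205 of 249, 251 of 354 and 257 of 459 were lower. These cells also gave the calls, so the counts are a description. Fewer kept the size. Taking the 3 bins from 2000 to 6500 CPM, 44 of the 384 higher genes that entered in all 3 were 2-fold or more higher in each, and 11 of the 119 lower genes were lower in each. Over all 4211, 4969 and 5488 genes that entered in these bins, 329, 216 and 256 were past 2-fold higher. Past 2-fold lower were 129, 161 and 400. The share of all genes past 2-fold in each of the 3 bins was not counted. The examples that follow were chosen after their values were seen, among genes past 2-fold in each of these 3 bins. Their direction in those bins was therefore set by the choice. CISD1, an iron-sulfur protein of the outer mitochondrial membrane, was at 280.3 CPM in control members and 1062 CPM in ZEA members, with log2 ratios of 1.705, 1.73, 1.62 and 1.54 in the 4 bins. COIL, coilin of Cajal bodies, was at 92.5 and 299 CPM, with ratios from 1.09 to 1.52. WDR63, an inner-arm dynein protein of the axoneme, was at 44.9 and 169 CPM, with 1.44, 1.46, 1.55 and 0.90. QRICH2, a protein of the sperm flagellum, was at 18.95 and 64.35 CPM, with ratios from 1.26 to 2.31. The ratios of CISD1 stayed close across the 4 bins, while those of WDR63 were smaller and those of QRICH2 larger in the highest bin.

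On the lower side SNAP29, a membrane fusion protein, was at 829 CPM in control members and 215 CPM in ZEA members, with log2 ratios of −1.10, −1.41, −1.53 and −1.70 in the 4 bins. ECI1, a mitochondrial enzyme of fatty acid oxidation, was at 466.5 and 175 CPM, with −1.71, −1.59, −1.63 and −1.68. KAT8, the acetyltransferase of lysine 16 of histone H4, was at 702.5 and 318.5 CPM, with ratios from −1.08 to −1.02. COX3, a mitochondrially encoded oxidase subunit, was at 91.4 and 21.7 CPM, with ratios from −2.60 to −1.80. Each stayed lower in ZEA in all 4 bins.

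**Figure D5:**
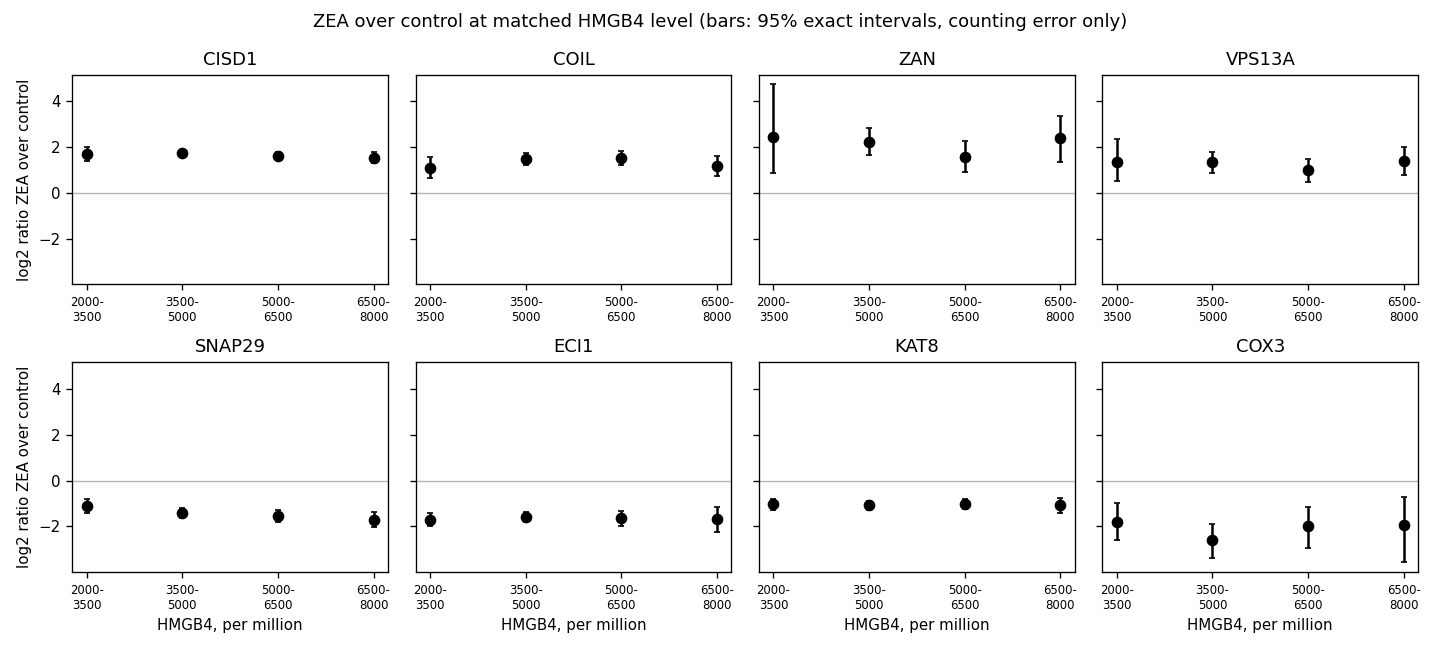
Log2 ratio of ZEA over control (y axis) in 4 bins of HMGB4 level (x axis, CPM) for 4 genes higher and 4 genes lower in ZEA; bars are 95% exact intervals for counting error. CISD1 stays between 1.54 and 1.73 and KAT8 between −1.08 and −1.02, and no interval reaches 0.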

How the data were processed

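The deposited files are UMI count matrices of the authors, whole-number counts per gene and barcode, 1 for each of the 2 libraries, with 27054 genes of which 10636 have no symbol. Cell Ranger 3.1.0 and STAR are named in the submitters' processing notes, and Cell Ranger 5.0.0 (control) and 3.1.0 (ZEA) per the file headers. The genome build, annotation, use of strand and selection of barcodes were not given in the sources used here.

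Members, gene lists and comparisons were chosen with earlier results of these data known, so no agreement with them is independent support. Raw counts were summed over the cells of a window or bin and expressed as CPM of the sum, with exact Poisson 95% intervals. Ratios are log2 of CPM with exact conditional binomial intervals, shares have exact (Clopper-Pearson) intervals, and a sum of 0 was set to 3 counts. A gene entered with 50 or more UMIs and detection in 5% of the cells of 1 side, and was called at 2-fold. With 1 library per group there is no test. A gene in which overlapping or near-identical genes share reads cannot be told apart from its partner. No doublet caller was run; sums without the 5% of cells with the most UMIs were made instead. Thinning drew 5000 UMIs per cell (seed 7), which left out no member. Of 485 listed symbols in 25 lists, 379 were found.

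Named genes were the rule's genes and markers; the 8 with the highest margin in the window and the 8 with the largest rise and fall across windows; the 10 highest and 10 lowest in ZEA with 200 or more UMIs whose direction held after thinning and with equal weight per cell; and from each list those with the largest ratios. The genes named along HMGB4 within the window and in matched bins were chosen after the data were seen. The calling of genes was tested on simulated data. Python 3.11.15, numpy 2.4.6, scipy 1.17.1, pandas 2.3.3 and matplotlib 3.10.9 were used.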

Additional observations from a re-analysis of the deposited data

How the results depend on the processing

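No paired analysis was possible because each group has 1 library, and no replicate could be left out. The share of barcodes in the window was 6.77% in control and 2.83% in ZEA with HMGB4 from 2500 to under 6500 CPM, and 4.15% and 2.70% in ZEA with at least 3000 or 8000 UMIs. Genes past 2-fold between windows in the control library alone numbered 1826 higher and 2032 lower in the middle than the low window, and 994 higher and 1606 lower in the high than the middle window; the ZEA library alone gave 735 and 246 for the former, the opposite balance, and 735 and 2069 for the latter. With cells thinned to 5000 UMIs, which leaves fewer genes to enter, 115 were lower in the middle than the low window, 200 higher and 114 lower along the window, and 515 higher and 387 lower in ZEA. Scaling by the median of gene ratios gave 642 higher and 468 lower in the high than the middle window and 86 lower along the window. Entry at 200 UMIs gave 309 and 31 (middle over low), 156 and 564 (high over middle) and 407 and 341 (ZEA). Entry at 1 UMI gave 4785 lower in the middle than the low window, 1855 higher in the high window, and 4998 higher and 1110 lower in ZEA; genes at 0 on 1 side and set to 3 counts are then in the count.

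Reweighting to the control's HMGB4 bins gave 507 higher in ZEA, the 118 control and 163 ZEA members under 10000 UMIs gave 308 and 187, and the bin from 3500 to 5000 CPM alone, chosen after seeing the data, gave 216 and 161. Of 84 gene ratios between the libraries, 80 with equal weight per cell, 70 after thinning and 83 without the cells of most UMIs stayed inside their counting interval; 23 did so after reweighting and 16 in the 1 bin. The sign changed after reweighting for PRSS37 (0.55), FHL5 (0.027), SPATA3 (0.12), HSP90AA1 (−0.024), SPEM1 (0.093) and CABS1 (0.72), in the 1 bin for PRSS37 (0.17), FHL5 (0.0053), SQSTM1 (−0.022) and SPATA25 (0.15), and under 10000 UMIs for DNAH2 (−0.020) and HSPA2 (1.20). The cause was not tested. Depth limits genes with few UMIs in the 35 and 45 low-window and the 26 ZEA high-window cells.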

Other observations

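AIF1 and COL3A1, which usually mark other cells, were present in the window while several markers of the same lists were at or near 0. AIF1, a marker of macrophages, was at 1255 CPM in control members and 1370 CPM in ZEA members, with PTPRC, the common leukocyte antigen, at 2.41 and 2.35 CPM and CD68, CD3D and LAPTM5 at 0. COL3A1, a fibrillar collagen, was at 3.21, 157 and 87.6 CPM in the low, middle and high windows of control and at 14.4, 101 and 58.1 CPM in ZEA, with COL1A2 at 1.25 and 3.23 CPM in the members and LUM at 0. SPARC, a matrix protein, was at 54.5 CPM in control members and 41.7 CPM in ZEA members. In the meiotic list, the recombinase DMC1 was at 9.64, 86.2 and 51.2 CPM in the 3 windows of control and at 49.2, 99.6 and 61.7 CPM in ZEA, highest in the middle window in both libraries, while the synaptonemal complex gene SYCP2 was at 446.5, 108 and 54.1 CPM in control and at 262.5, 187.5 and 39.95 CPM in ZEA, highest in the low window. These genes were named after their values were seen.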
